A study of Mus musculus with 12 samples.

Results

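By mean share over the 12 serum libraries, miR-22-3p was the most abundant miRNA of the mouse tables. It ranked first in 3 libraries and second in the others. Its share of the mouse miRNA counts stayed between 12.9% and 15.2% in all 12. In the human tables of these libraries another entry was more abundant, and miR-22-3p held 6.15% to 10.9%. miR-22-3p is 1 of 874 mature miRNAs listed in the mouse tables, where it has the miRBase accession MIMAT0000531. It was chosen by its abundance, that is by its counts as a share of each library, and its change after injection in each mouse and arm was looked at in the same choice. Its shares, ranks, ratios and changes after injection are therefore given as a description, without a test.

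The libraries came from serum of 3 female athymic NCr nude mice (mice 1046, 1047 and 1069), which were 4 to 6 weeks old when human SH-SY5Y neuroblastoma cells, an established cell line, were implanted beneath the renal capsule. Each mouse was bled before implantation, with no treatment, and again 2 weeks after it. Each of these 6 sera (RNA from 50 μl) gave a pair of libraries, an undepleted one and one whose RNA had first been cleared of 5′ tRNA-derived fragments with biotinylated DNA probes and streptavidin beads. The pair is called the aliquots of a serum here. The study's introduction speaks of the same RNA samples without depletion. Its methods do not say whether both came from a single RNA isolation. This gave 4 groups of 3 libraries: before injection depleted, after injection depleted, before injection undepleted and after injection undepleted. The mice lack functional T cells, as athymic animals do, and no mice without tumor cells were bled at the later time point in the data used here. Tumor growth and elapsed time can therefore not be told apart.

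MicroRNAs are short RNAs cut from a hairpin precursor. One strand of the duplex is kept in an Argonaute protein and guides it to messenger RNAs, chiefly through the seed, bases 2 to 8 from the 5′ end. miR-22-3p is the strand kept from the 3′ arm of the miR-22 hairpin. It is expressed in many tissues, including blood cells, heart and skeletal muscle. Circulating miRNAs leave cells in vesicles or bound to protein, or through lysis of blood cells.

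The sequences are shown because they define what was counted and which other miRNAs could share its targets. They are from RefSeq (GRCm38.p6), with the seed in capitals in the mature strands and the miR-22-3p strand in capitals in the hairpin:
mmu-miR-22-3p: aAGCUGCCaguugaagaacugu
mmu-miR-22-5p: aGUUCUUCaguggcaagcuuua
miR-22 hairpin: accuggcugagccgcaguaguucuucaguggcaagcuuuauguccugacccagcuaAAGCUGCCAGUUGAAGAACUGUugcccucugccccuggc

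The hairpin of 95 bases lies on the plus strand at chr11:75463716-75463810 (GRCm38), and the mature 3p strand of 22 bases at chr11:75463772-75463793. In the GENCODE M21 annotation the hairpin sits inside exon 2 of the non-coding Mir22hg, the host gene of miR-22, and inside exon 2 of a transcript model (Tlcd2-203) of the protein-coding Tlcd2 on the same strand. Among 1679 named mature miRNAs in the RefSeq table, 0 others have the seed AGCUGCC, and 1 locus encodes the mature sequence. miR-22-3p thus has no seed family in that table, and its counts were not divided between paralogs there.

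The depleted libraries held 938706 to 2271549 mouse miRNA counts and the undepleted ones 21235 to 97183. miR-22-3p was counted 133746 to 345338 times in depleted and 2959 to 13341 times in undepleted libraries. With counts this high, counting error was small: the widest 95% Wilson interval of its share, in the smallest library (mouse 1069 before injection, undepleted), ran from 13.5% to 14.4%. These intervals cover counting error only, since reads amplified in 15 PCR cycles without molecular identifiers are not independent molecules.

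In depleted sera drawn before injection, miR-22-3p held 13.6% of the mouse counts in mouse 1046, 13.0% in mouse 1047 and 14.2% in mouse 1069. In depleted sera drawn after injection the shares were 15.2%, 14.5% and 15.2% in the same order. Each mouse had a higher share after injection than before it. In the undepleted aliquots the shares before injection were 13.7%, 12.9% and 13.9%, and after injection 13.8%, 13.1% and 13.9%. In these aliquots the difference between time points was at most 0.185 percentage points in any mouse. The mean of the 3 mice went from 13.6% ± 0.6 to 15.0% ± 0.4 with depletion, and from 13.5% ± 0.6 to 13.6% ± 0.5 without it (± SD). In order of level, the 3 groups at 13.5% to 13.6% did not differ beyond their spread, and the group after injection with depletion was the highest. Mouse 1047 had the lowest share of the 3 mice in each of the 4 groups.

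**Figure D1:**
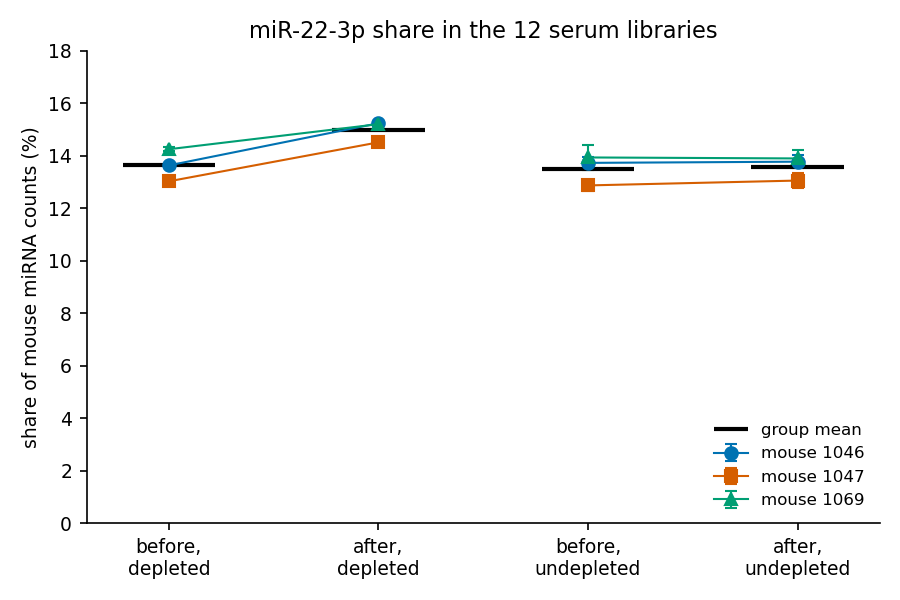
Share of mouse miRNA counts held by miR-22-3p (y axis, percent) in the 4 groups (x axis), with 1 point per library, lines joining both sera of a mouse, 95% Wilson intervals as error bars and group means as black bars. The shares lie between 12.9% and 15.2%, and the group after injection with depletion has the highest mean.

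miR-22-3p ranked first in 3 libraries and second in the other 9. It ranked first in the depleted libraries of mouse 1069 before injection and of mice 1046 and 1047 after injection. The miRNA at the other leading rank was not the same throughout. MIMAT0001632 was the most abundant other miRNA in the 3 depleted libraries before injection, miR-16-5p (MIMAT0000527) in the 3 undepleted libraries before injection, and MIMAT0000221 in all 6 libraries after injection. Apart from miR-22-3p and miR-16-5p, miRNAs are given by accession here, as no table used here pairs accessions with names.

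By the mean share over the 12 libraries, the leading 5 were miR-22-3p with 13.9%, miR-16-5p with 11.1%, MIMAT0000221 with 10.4%, MIMAT0001632 with 9.01% and MIMAT0000208 with 5.89%. Together they made up 50.3% of the counts. The coefficient of variation of the share over the libraries was 5.58% for miR-22-3p, 36.7% for miR-16-5p, 55.3% for MIMAT0000221 and 42.4% for MIMAT0001632. Over the other 9 of the 10 most abundant miRNAs it ranged from 9.07% to 55.3%. miR-22-3p was hence the steadiest of the 10 in share of the mouse counts, while its neighbours in rank exchanged places between time points. This rests on the mouse total. In the human tables, where another entry led, the share of miR-22-3p varied more, from 6.15% to 10.9% (8.40% ± 1.45, SD over 12 libraries).

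**Figure D2:**
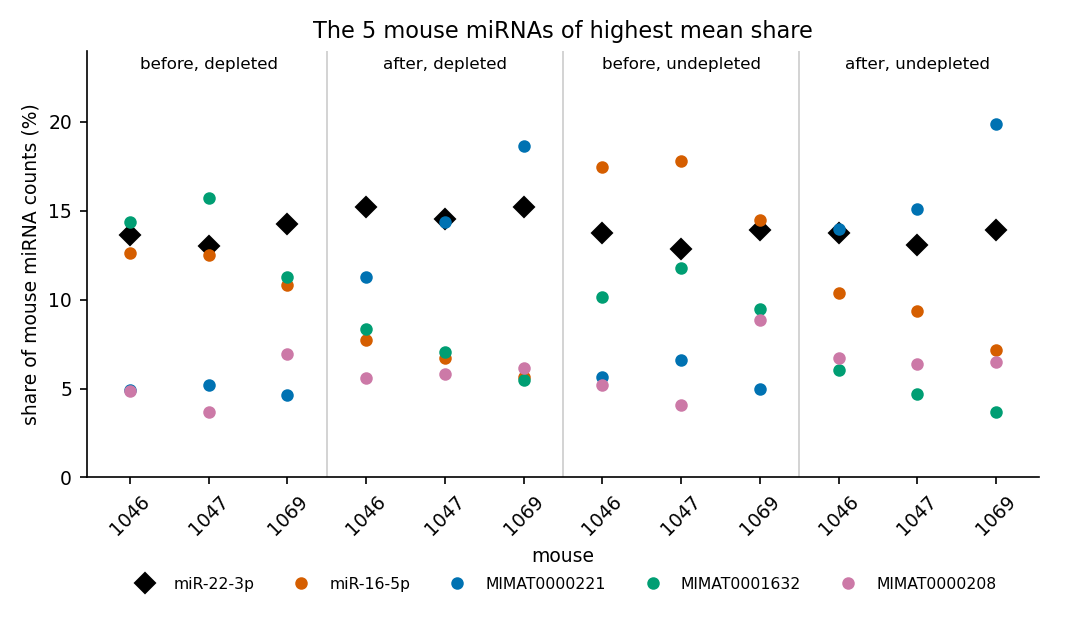
Share of mouse miRNA counts (y axis, percent) of the 5 miRNAs with the highest mean share in each library (x axis, by mouse within the 4 groups). miR-22-3p (black) stays between 12.9% and 15.2%, while MIMAT0000221 ranges from 4.63% to 19.9% and miR-16-5p from 5.62% to 17.8%.

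In the mouse counts, miR-22-3p was also the steadiest of all 41 miRNAs with at least 50 counts in every library. The SD of the log2 share over the 12 libraries was 0.08 for miR-22-3p, the lowest of the 41, against a median of 0.45 and a highest value of 1.25. The next lowest was 0.13, for MIMAT0000154. Within the depleted libraries alone the SD was 0.09, and within the undepleted ones 0.05, again the lowest of the 41 in each. On the scale of log2 normalised counts (DESeq2 median-of-ratios, pseudocount 1) the SD of miR-22-3p was 0.11, also the lowest, with a median of 0.42. Part of the spread of rarer miRNAs is counting error, and the lowest count of miR-22-3p in any library was 2959. This order is a description of these 12 libraries, which come from 3 mice.

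**Figure D3:**
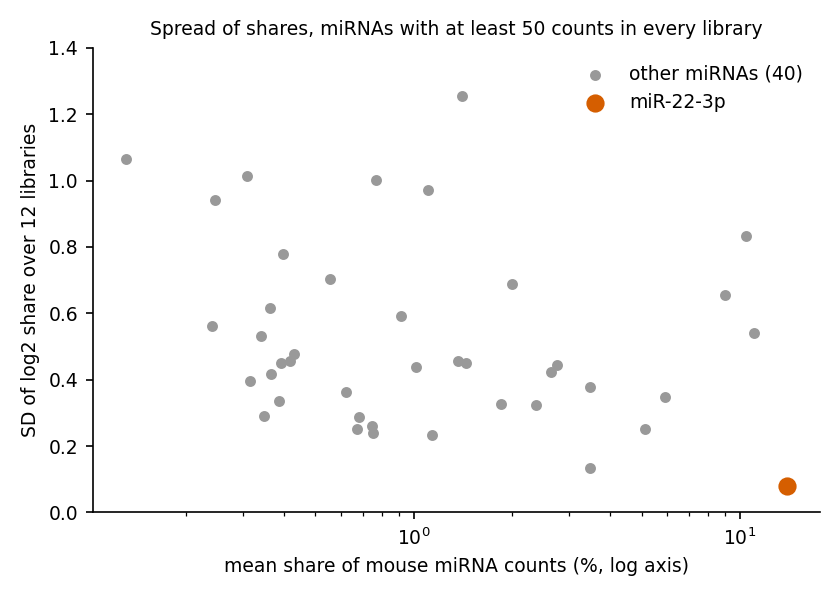
SD of the log2 share over 12 libraries (y axis) against the mean share of mouse miRNA counts (x axis, percent, log axis) for the 41 miRNAs with at least 50 counts in every library. miR-22-3p lies at the highest share, 13.9%, and at the lowest SD, 0.08.

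The other strand of the hairpin was close to the limit of detection. MIMAT0004629, taken as miR-22-5p (a pairing not checked against a table), had 6, 9 and 4 counts in the depleted libraries before injection and 6, 1 and 6 after it, in the order of mice 1046, 1047 and 1069. The undepleted libraries held 0 to 3 counts. Summed over the 6 depleted libraries it reached 32 counts, or 3.23 ppm of the mouse counts (95% Wilson interval 2.29 to 4.56), against 1424135 counts of miR-22-3p. Summed over the undepleted libraries it was 8 counts, or 21.2 ppm (10.7 to 41.8). For each count of the 5p strand there were thus 44504 counts of the 3p strand in depleted libraries and 6365 in undepleted ones. In the undepleted library of mouse 1047 after injection the 5p count was 0, which allows up to 57.7 ppm, so no change of the 5p strand could be assessed in undepleted serum.

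In the human tables of the same libraries the entry MIMAT0000077 had the same count as mouse miR-22-3p in 10 of 12 libraries, and the counts of the remaining 2 differed by 3 reads in total. The count of MIMAT0004495 equalled that of MIMAT0004629 in all 12. Reads of this miRNA were thus entered in both tables, and miR-22-3p from mouse cells and from SH-SY5Y cells cannot be told apart in these counts. In the human tables the share of MIMAT0000077 went from 6.99% ± 0.79 to 9.96% ± 0.81 with depletion, and from 7.46% ± 0.99 to 9.19% ± 0.60 without it (before to after injection, SD over 3 mice). It ranked at 2 or 3 in every library. The most abundant human entry, MIMAT0002177, averaged 50.4% ± 3.5 of the depleted libraries before injection and 36.4% ± 4.3 of those after it (SD over 3 mice). With that entry left out of the total, the share of MIMAT0000077 went from 14.1% ± 0.6 to 15.7% ± 0.4 with depletion and from 13.9% ± 0.6 to 14.1% ± 0.4 without it, close to the shares in the mouse tables. MIMAT0002177 led before any human cells were implanted, and no entry of the mouse tables held more than 19.9% of a library.

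To assess whether miR-22-3p changed with tumor burden, both sera of each mouse were compared. In depleted libraries its share after injection was higher by 1.61 percentage points in mouse 1046, 1.48 in mouse 1047 and 0.955 in mouse 1069. On the log2 scale these differences were 0.16, 0.16 and 0.09. In undepleted libraries the differences in log2 share were 0.00, 0.02 and -0.00. The direction in depleted libraries rested on the scale, however. On the median-of-ratios scale the count went from 245820 to 217824 in mouse 1046 and from 261104 to 209079 in mouse 1047, both downwards, and from 213239 to 227454 in mouse 1069. In undepleted libraries it went from 8315 to 7399, from 8313 to 7039 and from 6821 to 7477, in the same order. On this scale, mice 1046 and 1047 were lower and mouse 1069 was higher after injection in both arms.

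**Figure D4:**
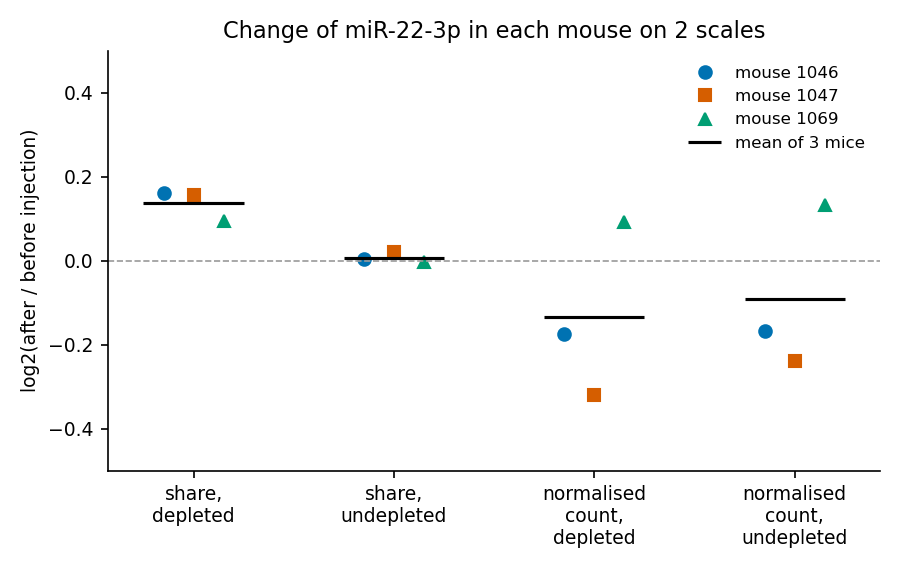
Log2 ratio of miR-22-3p after over before injection (y axis) for each mouse on the share scale and on the median-of-ratios scale in both arms (x axis), with the mean of 3 mice as a black bar. On the share scale all 3 mice lie above 0 in depleted libraries and near 0 in undepleted ones, and on the normalised scale mouse 1069 lies above 0 and the others below it.

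In DESeq2, the mean normalised count of miR-22-3p with depletion was 240054 ± 24448 in the sera before injection and 218119 ± 9191 in those after it (SD over 3 mice). Its log2 fold change was -0.13 with a standard error of 0.23. Without the prior on the fold change, the 95% interval ran from -0.61 to 0.33, which corresponds to 34.4% lower to 25.9% higher. In undepleted libraries it was 7816 ± 862 at first and 7305 ± 234 later, with a log2 fold change of -0.09, a standard error of 0.20 and an interval from -0.50 to 0.30. Changed miRNAs (adjusted p under 0.05 and at least 2-fold) were 10.6% of 310 tested in depleted libraries (4.84% higher, 5.81% lower). In undepleted libraries they were 11.1% of 108 tested (8.33% higher, 2.78% lower). No call is given for miR-22-3p, since its change entered its choice. With scaling by total counts the log2 fold change in depleted libraries was 0.13 instead of -0.13 (standard error 0.20). The median over all tested miRNAs moved likewise, from -0.09 to 0.14, and the changed ones went from 15 higher and 18 lower to 32 higher and 5 lower. Counts of serum RNA are relative, so changes in source cells, in miR-22-3p released per cell and in the other miRNAs cannot be told apart.

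A ratio of counts within a library needs no scaling. miR-16-5p was taken as the reference, being the miRNA with which the study checked its depletion. It was not a constant reference here. Its own log2 fold change after injection was -1.07 with depletion and -0.95 without it, and its log2 difference upon depletion was -0.56. In depleted libraries there were 1.08, 1.04 and 1.31 counts of miR-22-3p for each of miR-16-5p before injection in mice 1046, 1047 and 1069, and 1.98, 2.16 and 2.70 after it. In undepleted libraries the ratios were 0.79, 0.72 and 0.96 before and 1.33, 1.39 and 1.95 after injection. The ratio was higher after injection in 3 of 3 mice in both arms, while miR-16-5p itself was lower. The mean log2 change was 0.99 ± 0.10 in depleted and 0.91 ± 0.13 in undepleted libraries (± SD over 3 mice). Against MIMAT0001632 the mean log2 change was 1.13 ± 0.19 with depletion and 1.15 ± 0.35 without it. Against MIMAT0000532 it was -0.51 ± 0.06 and -0.36 ± 0.16, which is the opposite direction (SD, n = 3 each). In the undepleted library of mouse 1069 before injection the latter reference had only 33 counts. The direction of the ratio thus depended on the reference chosen.

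miR-16-5p and MIMAT0001632 belong to a list of 7 accessions drawn up as miRNAs of red blood cells, of which 6 were found in the tables used here. These and the other cell type accessions below were entered from general knowledge and could not be checked against a table. In depleted libraries 5 of these 6 fell after injection and 0 rose, where 5.81% of all tested miRNAs fell, with a median log2 fold change of -1.08, against -0.09 over all 310 tested miRNAs. In undepleted libraries 2 of 6 fell by at least 2-fold and 0 rose, where 2.78% of all tested miRNAs fell (median -0.92, against -0.06 over 108). The other 3 with a DESeq2 adjusted p under 0.05 there were lower by less than 2-fold, with log2 fold changes of -0.95 for miR-16-5p, -0.88 for MIMAT0000652 and -0.84 for MIMAT0014943. The summed share of the list went from 35.2% ± 4.4 to 21.3% ± 2.9 with depletion, and from 35.5% ± 4.6 to 21.1% ± 3.0 without it (± SD over 3 mice). It was 30.3% to 38.6% in depleted sera before injection and 18.1% to 23.9% after it. The part of these miRNAs in the share of miR-22-3p was not tested, and haemolysis readings of the sera were not used here. Of 3 accessions listed for white blood cells, 2 were found and 0 changed after injection in either arm. Of all tested miRNAs, 10.6% changed with depletion and 11.1% without it. The summed share of the white cell list was 0.23% ± 0.05 before and 0.38% ± 0.04 after injection with depletion. Without depletion it was 0.19% ± 0.05 and 0.29% ± 0.04 (± SD over 3 mice). With depletion it was 0.19% to 0.29% before and 0.34% to 0.43% after injection. Without depletion it was 0.14% to 0.237% and 0.244% to 0.33%. How often other miRNAs were as far apart was not assessed. Of 3 listed for muscle, 2 were found, and MIMAT0000145 fell in both arms (log2 fold change -1.64 with and -1.35 without depletion). The accession listed for liver had too few counts for a test after injection. The single accession listed for endothelium was not found in the tables used here, so endothelium was not assessed.

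Next, both aliquots of each serum were compared to assess whether the removal of these tRNA fragments altered the relative level of miR-22-3p. Its raw count was 13.8 to 50.3 times higher in the depleted aliquot, against 13.9 to 45.9 times for the total of all mouse miRNAs. In sera before injection the share was 13.6% in the depleted and 13.7% in the undepleted aliquot of mouse 1046, 13.0% and 12.9% in mouse 1047, and 14.2% and 13.9% in mouse 1069. In sera after injection it was 15.2% and 13.8%, 14.5% and 13.1%, and 15.2% and 13.9%. Before injection both aliquots therefore differed by at most 0.313 percentage points, and after injection the depleted aliquot was higher by 1.31 to 1.46 points.

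Over all sera the mean log2 ratio of the shares, depleted over undepleted, was 0.08 ± 0.07 (± SD over 6 sera of 3 mice), and it was above 0 in 5 of 6. On the median-of-ratios scale the mean was -0.04 ± 0.04 and the depleted aliquot was higher in 1 of 6 sera. In DESeq2 over the 12 libraries the log2 difference upon depletion was -0.04 with a standard error of 0.08 (DESeq2 adjusted p = 0.869), and its 95% interval without the prior corresponded to 13.1% lower to 9.22% higher. The shares of both arms also entered the choice of miR-22-3p, so the p-values of this contrast are given as a description. Each serum was also fitted as a block, since both aliquots share a serum, with the prior kept. The standard error was then 0.03. The 95% interval of the log2 difference ran from -0.09 to 0.02, or -6.22% to 1.24% (DESeq2 adjusted p = 0.578). By comparison, 8.36% of 383 tested miRNAs differed upon depletion (4.96% higher, 3.39% lower). For miR-16-5p the log2 difference was -0.56. With TMM factors the log2 difference of miR-22-3p was 0.23 (standard error 0.12, DESeq2 adjusted p = 0.237), where the median of all tested miRNAs had moved from -0.04 to 0.20.

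**Figure D5:**
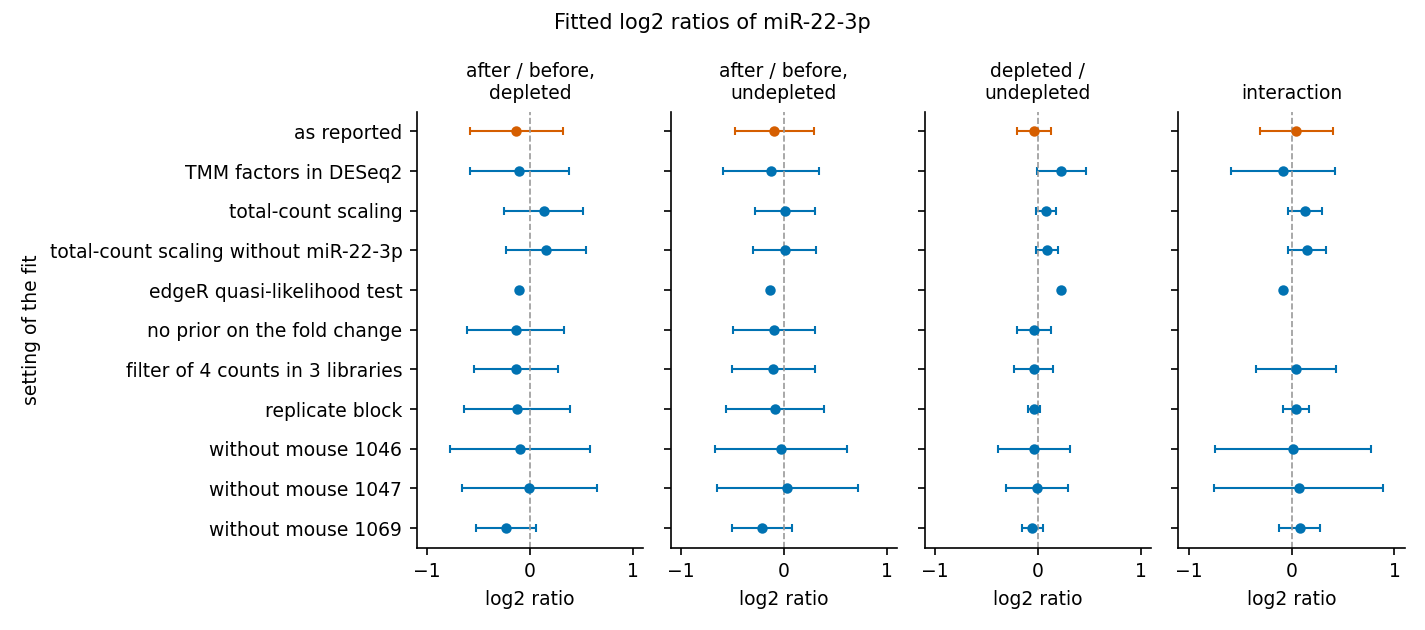
Fitted log2 ratios of miR-22-3p (x axis) after over before injection in each arm, depleted over undepleted, and for the interaction of both, under the reported settings (first row) and the alternatives (other rows). Points are estimates and bars 95% intervals from the standard errors, which edgeR does not give. The intervals describe precision and are not given as a test.

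Whether the change after injection differed between arms was assessed with an interaction term. The DESeq2 log2 interaction of miR-22-3p was 0.05 with a standard error of 0.18 and a 95% interval from -0.31 to 0.40. With the serum as a block the estimate was 0.04 and the interval ran from -0.08 to 0.17. Of 874 mouse miRNAs tested, 0% passed an adjusted p of 0.05. At an unadjusted p under 0.05 there were 3 in DESeq2 and 11 in edgeR, of which 0 passed after adjustment in edgeR as well. On the share scale, the log2 ratio of depleted over undepleted aliquots averaged 0.01 ± 0.02 in the earlier and 0.14 ± 0.01 in the later sera (± SD over 3 mice). All 3 mice had the higher ratio in the later serum. This comparison was added after the shares had been seen. On the median-of-ratios scale the averages were -0.06 ± 0.02 and -0.02 ± 0.05, again higher later in 3 of 3 mice. Both intervals of the interaction are on the median-of-ratios scale, and are wide enough to hold a difference of the size seen in the shares. With total-count scaling, the scale of the shares, the log2 interaction was 0.128 with a standard error of 0.085.

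Finally, the miRNAs whose level varied most like that of miR-22-3p were sought among the 40 others with at least 50 counts in every library. Likeness was Pearson's r of log2(normalised count + 1) over the 12 libraries after the mean of each arm had been subtracted. The highest values were 0.79 for MIMAT0000215, 0.78 for MIMAT0000539, 0.73 for MIMAT0000154, 0.72 for MIMAT0004825 and 0.66 for MIMAT0000648, and the median of the 40 was 0.27. The 12 points are paired aliquots of 6 sera and share their size factors, so these values are a description only. With shares in place of normalised counts, r was -0.50, -0.44, 0.13, -0.16 and 0.20, respectively, so the likeness depended on the scale.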

How the data were processed

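Small RNA of 12 serum libraries was sequenced (TruSeq kit, single-end). The authors trimmed adaptors with Cutadapt 1.8.1, discarded reads under 15 bp or without adaptor, filtered on base quality, mapped with Bowtie 1.1.2 without mismatches to GRCm38/mm10 and GRCh37/hg19, and assigned reads to miRBase coordinates. They deposited raw read counts per mature miRNA, with 1 mouse and 1 human table per library. Unlisted miRNAs were taken as 0. How reads with several loci were counted is not given in the sources used here.

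Groups came from the sample labels. Counts were fitted with DESeq2 1.42.0 (R 4.3.3; median-of-ratios size factors, Wald test with zero-centred prior, independent filtering at 0.05, Benjamini-Hochberg adjustment over all mouse miRNAs), the tool of the study. Each arm was fitted with time point as the term. Depletion was fitted on all libraries with time point as covariate, and the interaction without prior. Intervals are Wald intervals without prior. Each fit at its reported settings was tested on simulated data, drawn independently for each library. The alternative fits were not tested in this way. Alternatives were edgeR 4.0.16, TMM factors, total-count scaling with and without miR-22-3p, no prior, a filter of 4 counts in 3 libraries, a replicate block, and leaving out each mouse. Shares and ratios used Python 3.11.15 and SciPy 1.17.1. Planned tests of shares, ratios and the change after injection are not given for miR-22-3p, since these values entered its choice.

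The named miRNAs were miR-22-3p, its other strand and human entries, the 5 of highest mean share, the 5 most alike, and lists of accessions for red cells (with MIMAT0000532 as the usual reference of a haemolysis ratio), white cells, muscle, liver and endothelium. The members and lists were chosen with earlier results of these data known.

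The mouse number pairs sera of 1 animal, and both aliquots come from 1 serum. Deviations from group means correlated with r of 0.70 to 0.95 between aliquots of a serum and of -0.22 to 0.09 between time points of a mouse (41 miRNAs). Libraries of a group differed beyond counting noise (chi-square per degree of freedom of at least 7.7). Depths were 21235 to 2271549 counts, and the spread between sera, which exceeds counting error, limits the precision for miR-22-3p.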

Additional observations from a re-analysis of the deposited data

How the results depend on the processing

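miR-22-3p was called changed in 0 of 10 alternative fits of depletion, again given as a description. No calls are given for the change after injection or its interaction with depletion, since that change entered the choice of miR-22-3p. The DESeq2 or edgeR adjusted p-values for depletion ranged from 0.237 to 0.996. The sign of the estimates depended on the settings, so none is read as a direction. With total-count scaling, and with miR-22-3p left out of the total, the log2 change after injection became 0.13 and 0.15 in depleted and 0.00696 and 0.00791 in undepleted libraries, and the difference upon depletion 0.0785 and 0.0913. With TMM factors and with edgeR the difference upon depletion became 0.23 and 0.23, and the interaction -0.0814 and -0.0820. The cause was not tested beyond the move of the median given above. Leaving out 1 mouse gave -0.23 to -0.0050 for injection in depleted, -0.21 to 0.0350 in undepleted libraries (0.0350 without mouse 1047), -0.0541 to -0.0070 for depletion and 0.01 to 0.08 for the interaction. The replicate block gave -0.13, -0.09, -0.04 and 0.04 in the same order, and the call for depletion was the same.

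The mean share of 13.9% became 8.40% in the human tables and 16.5% without the most abundant other miRNA in the total, by construction. It was 13.7% to 14.2% when 1 mouse was left out. The log2 ratio of aliquots was 0.07 to 0.08 without 1 mouse, and -0.0375 on normalised counts. With MIMAT0000532 as reference the change of the ratio was -0.51 and -0.36, against 0.96 to 1.05 and 0.85 to 0.98 for miR-16-5p when 1 mouse was left out. The number of changed miRNAs fell from 33 to 11 without mouse 1047 and to 19 without mouse 1069 in depleted libraries, from 12 to 1 and 7 in undepleted ones. Without mouse 1069 the changed miRNAs were 5 higher and 14 lower in depleted and 1 higher and 6 lower in undepleted libraries, and without mouse 1047 they were 7 higher and 4 lower, and 1 higher and 0 lower. The number fell from 32 to 19 upon depletion without mouse 1046. Upon depletion 19 were higher and 13 lower, against 32 and 10 with TMM factors, and 34 and 10 with edgeR. In undepleted libraries 9 were higher and 3 lower after injection, against 8 and 5 with TMM factors, and 9 and 6 with edgeR.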
